A study of Mus musculus with 4 samples.

Results

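The Hippo pathway genes and YAP targets described here are 9 genes, *Yap1*, *Wwtr1*, *Tead1*, *Lats1*, *Lats2*, *Ccn1*, *Ccn2*, *Amotl2* and *Ankrd1*, out of 20832 genes that could be named on the array. They were chosen by symbol, and every probe whose accession the mouse RefSeq gene table pairs with one of these symbols was taken, which gave 12 of 27427 named probes. B16-F10, a mouse melanoma line, was sorted by flow cytometry into Met-low and Met-high cells, that is by the amount of the hepatocyte growth factor receptor Met on the cell surface, and each population was then grown apart for 3 days in the same serum-containing medium without any further treatment. Cy3-labelled RNA of 2 samples per population was hybridised to 4 one-colour Agilent arrays, which shared 1 slide. Positions 1 and 2 of the slide held Met-low RNA and positions 3 and 4 Met-high RNA, so that array position and population cannot be told apart. Both populations come from 1 cell line, and the p-values measure the spread between these samples only.

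The Hippo pathway is a kinase cascade that restrains growth. The kinases Lats1 and Lats2 phosphorylate the coactivators YAP, encoded by *Yap1*, and TAZ, encoded by *Wwtr1*, which keeps them in the cytoplasm. Unphosphorylated YAP and TAZ enter the nucleus, bind TEAD proteins such as Tead1 on DNA, and switch on targets that include the secreted matrix proteins Ccn1 (formerly Cyr61) and Ccn2 (formerly Ctgf), the junction protein Amotl2 and the ankyrin repeat protein Ankrd1. Several targets, *Lats2* and *Amotl2* among them, encode inhibitors of YAP and so close a feedback loop. The pathway acts mainly through phosphorylation and localisation of YAP and TAZ, which an RNA array does not measure. The targets are its readout at the RNA level.

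TEAD proteins recognise the letters GGAATG, read as CATTCC on the opposite strand, and both strands were searched in the RefSeq promoter windows of the mouse assembly GRCm38.p6, from 250 bases before to 50 bases after each gene's start. Of the 7 members with a window, 6 held the motif (*Yap1*, *Wwtr1*, *Lats2*, *Ccn1*, *Amotl2* and *Ankrd1*) and *Lats1* did not. In 5 of the 7 the match lay before the start, the exception among those with a match being *Lats2*, and before the start the letters were found in 14.4% of genes. The motif was in 14.7% of 32851 windows of the same length and, counted per gene, in 16.6% of 27025 genes. AP-1 sites, where Jun and Fos proteins often bind DNA together with YAP, TAZ and TEAD, were searched as TGANTCA on both strands and were found in 0 of the 7 members, against 8.97% of genes. A match is a description of letters and not a measured binding site. The sequences with a match before the start are given because they carry the letters through which YAP and TAZ are known to reach their targets. Each reads 5′ to 3′ along the gene's strand, with the TEAD letters in capitals. *Ccn1* (chr3:145649986-145650235, minus strand), *Amotl2* (chr9:102717554-102717803, plus strand) and *Ankrd1* (chr19:36119845-36120094, minus strand) are shown as the 250 bases before the start. *Yap1* (chr9:8004687-8004782, minus strand) and *Wwtr1* (chr3:57575996-57576091, minus strand) are shown as the 96 bases around the match.
Ccn1: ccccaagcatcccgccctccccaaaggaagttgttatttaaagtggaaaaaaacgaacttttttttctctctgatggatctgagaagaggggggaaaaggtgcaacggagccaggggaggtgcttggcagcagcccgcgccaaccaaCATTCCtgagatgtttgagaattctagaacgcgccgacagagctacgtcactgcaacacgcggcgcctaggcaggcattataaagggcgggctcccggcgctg
Amotl2: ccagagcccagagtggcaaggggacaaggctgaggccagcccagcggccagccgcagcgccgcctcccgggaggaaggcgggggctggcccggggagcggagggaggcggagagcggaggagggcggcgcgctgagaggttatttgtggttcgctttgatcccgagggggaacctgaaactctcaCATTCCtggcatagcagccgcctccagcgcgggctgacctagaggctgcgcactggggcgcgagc
Ankrd1: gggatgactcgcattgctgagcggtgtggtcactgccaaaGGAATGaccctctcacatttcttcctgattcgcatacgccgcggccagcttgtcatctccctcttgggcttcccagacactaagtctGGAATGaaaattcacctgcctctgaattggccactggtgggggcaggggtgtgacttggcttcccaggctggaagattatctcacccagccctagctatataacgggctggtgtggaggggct
Yap1: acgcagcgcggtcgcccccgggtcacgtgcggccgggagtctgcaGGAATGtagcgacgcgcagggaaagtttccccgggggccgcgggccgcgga
Wwtr1: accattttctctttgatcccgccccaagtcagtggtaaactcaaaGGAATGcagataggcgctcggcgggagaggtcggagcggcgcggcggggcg

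**Figure D1:**
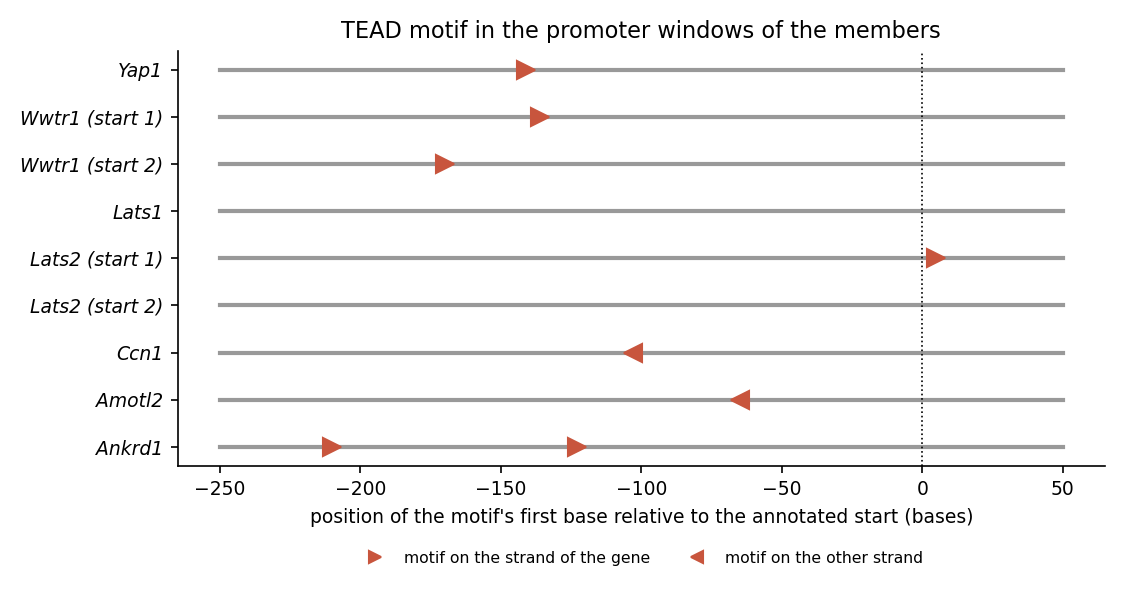
Position of the TEAD letters in the promoter windows of the members, in bases from the annotated start, which is at 0, with right-pointing marks on the strand of the gene and left-pointing marks on the other strand. *Wwtr1* and *Lats2* have 2 annotated starts each. The matches before the start lie between 65 bases (*Amotl2*) and 210 bases (*Ankrd1*) upstream, and *Ankrd1* has 2.

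The arrays held 43020 spots that are not controls, of which 50.01% to 53.63% were well above background and 0 were saturated. All values below are log2 signals relative to the 75th percentile of the array, which was an intensity of 858 to 1331. A log2 ratio is the Met-high mean minus the Met-low mean. Levels of different probes are not compared as amounts of RNA, because a probe's brightness depends on its own sequence. The summed marker levels below add the signals of different probes and describe signal only. Genes had to be well above background on each array of one population or the other, and the 11958 that were so were fitted together with limma, and adjusted p-values are by the Benjamini-Hochberg method over all of them. *Ankrd1* did not pass this filter, which left 8 members. The melanocyte genes *Pmel*, *Mlana*, *Tyr*, *Dct*, *Tyrp1*, *Mitf* and *Sox10* were well above background on all 4 arrays, 7 of 7, with a summed level, in multiples of the 75th percentile, of 1385 to 1691 in Met-low and 1493 to 1698 in Met-high cells. *Met* itself, the sorted marker, overlapped between the populations, at -0.26 and -0.89 in Met-low and 1.03 and -0.43 in Met-high cells (log2 ratio 0.87 with a standard error, SE, of 0.51, adjusted p = 0.333 from limma). By quantitative RT-PCR, the study reported much higher *Met* mRNA in Met-high cells.

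None of the 8 members passed an adjusted p of 0.05, 0 in either direction, where limma called 5.71% of all genes, 1.92% higher and 3.8% lower in Met-high cells. At an unadjusted p under 0.05 there was 1 member, *Ccn2*, against 26.2% of all genes. Of the 8 log2 ratios 4 were above 0 and 4 below, with a median of -0.01, while the median over all genes tested was 0.10. For 6 members the 95% interval of the ratio lay within a 2-fold change in either direction, as it did for 68.6% of all genes, and the exceptions were *Lats1* and *Ccn2*. The arrays of the populations did not overlap for 2 members, *Ccn1* and *Ccn2*, against 58.4% of all genes. The means of 0 members differed by over 2-fold, against 7.74% of all genes.

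**Figure D2:**
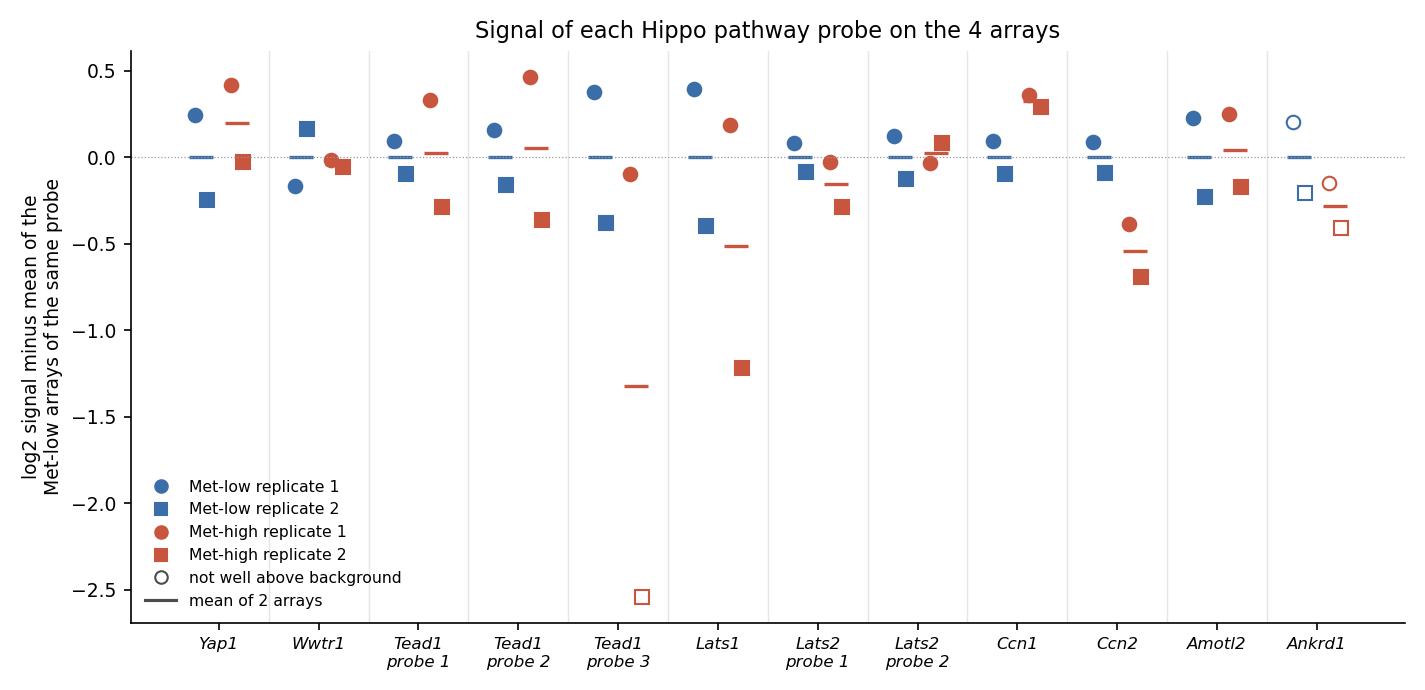
Log2 signal of each member probe on each of the 4 arrays, minus the mean of the Met-low arrays of the same probe. Blue points are Met-low and red points Met-high arrays (circles replicate 1, squares replicate 2), short lines are means of 2 arrays, and open points were not well above background. The populations do not overlap for *Ccn1*, where Met-high arrays are above, and for *Ccn2*, where Met-low arrays are above.

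Among the coactivators, *Yap1* (NM_001171147) gave 3.90 and 3.40 in Met-low cells and 4.07 and 3.62 in Met-high cells. The populations overlapped, and the mean was 3.65 ± 0.35 (SD, n = 2) against 3.84 ± 0.31 (SD, n = 2). The log2 ratio was 0.20 (SE 0.25, 95% interval -0.45 to 0.84, adjusted p = 0.655 from limma), an interval that runs from 0.734-fold to 1.79-fold. The probe was bright on every array, with intensities from 13685 to 14385. *Wwtr1* (NM_133784), which encodes TAZ, gave -1.02 and -0.70 in Met-low and -0.88 and -0.92 in Met-high cells. Both Met-high arrays lay between the Met-low arrays, and the log2 ratio was -0.04 (SE 0.18, 95% interval -0.50 to 0.42, adjusted p = 0.916 from limma). A difference of 2-fold lay outside the interval for both coactivator genes.

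*Tead1* (NM_001166584), one of the DNA-binding partners, was read by 3 probes. The brightest, which stands for the gene, gave 0.14 and -0.05 in Met-low and 0.38 and -0.24 in Met-high cells. The Met-high arrays lay on either side of the Met-low arrays, with a log2 ratio of 0.02 (SE 0.25, 95% interval -0.61 to 0.66, adjusted p = 0.961 from limma). A second probe had a log2 ratio of 0.05 (SE 0.32) and was well above background on all 4 arrays. The third probe gave intensities of 71.0 and 59.3 in Met-low and 46.5 and 11.1 in Met-high cells, and the last of these was not well above background. Its log2 ratio was -1.32 (SE 0.83, 95% interval -3.45 to 0.81, adjusted p = 0.382 from the fit over 15626 probes). It was -2.54 without Met-high replicate 1 and -0.10 without Met-high replicate 2, so that its size rests on the 1 array on which the probe was not well above background. Over every probe by itself, limma called 3.84% of probes and 0 of the 11 member probes that passed the filter, and the means of 1 of the 11, the third *Tead1* probe, differed by over 2-fold, as did those of 7.69% of probes.

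The kinases that inactivate YAP and TAZ differed in how closely their arrays lay together. *Lats2* (NM_015771) gave 0.41 and 0.24 in Met-low and 0.30 and 0.04 in Met-high cells (log2 ratio -0.15, SE 0.18, 95% interval -0.61 to 0.30, adjusted p = 0.615 from limma). A second *Lats2* probe (NM_153382) had a log2 ratio of 0.02 (SE 0.17). The populations overlapped for both probes of the gene. *Lats1* (NM_010690) gave -1.74 and -2.53 in Met-low and -1.95 and -3.35 in Met-high cells. Here the spread within a population was wider than the difference between them, with a pooled SD of 0.81 on the log2 scale that 1.76% of all genes exceeded. The log2 ratio of *Lats1* was -0.51 (SE 0.52, 95% interval -1.83 to 0.80, adjusted p = 0.565 from limma). It ran from -1.22 without Met-high replicate 1 to 0.19 without Met-high replicate 2, and a 2-fold difference lay inside its interval.

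Among the targets, *Ccn1* (NM_010516) gave 1.68 and 1.49 in Met-low cells and 1.95 and 1.88 in Met-high cells. Both Met-high arrays were above both Met-low arrays, as for 35.8% of all genes. The means were 1.59 ± 0.14 (SD, n = 2) and, in Met-high cells, 1.91 ± 0.05 (SD, n = 2), and the difference of 0.33 (SE 0.16, 95% interval -0.09 to 0.74), or 1.25-fold, did not pass the test (adjusted p = 0.272 from limma). *Ccn2* (NM_010217), the related gene, gave 1.48 and 1.30 in Met-low and 1.004 and 0.698 in Met-high cells. The Met-low arrays were the brighter ones, without overlap, as for 22.6% of all genes. The means were 1.39 ± 0.13 (SD, n = 2) and, in Met-high cells, 0.85 ± 0.22 (SD, n = 2). The log2 ratio of *Ccn2* was -0.54 (SE 0.19, 95% interval -1.01 to -0.07), a 1.45-fold lower signal in Met-high cells that also did not pass the test over all genes (adjusted p = 0.152 from limma). The interval reaches 2-fold at one end and a nearly equal signal at the other.

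*Ccn1* and *Ccn2* are both used as readouts of YAP activity and lay on opposite sides, so their difference was also taken within each array, where the scaling of the array drops out. Since these are different probes, only the shift of this difference between the populations can be read, not its level. *Ccn2* minus *Ccn1* was -0.20 and -0.19 in Met-low cells and -0.94 and -1.18 in Met-high cells. The means were -0.19 ± 0.01 (SD, n = 2) and -1.06 ± 0.17 (SD, n = 2), a difference of -0.87 on the log2 scale, larger than the spread within either population. This pair was chosen after the values were seen. Neither gene overlapped between the populations and they lay on opposite sides, so their difference had to separate the populations and is a description. With 2 arrays against 2 an exact permutation test cannot give a two-sided p under 0.333.

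*Amotl2* (NM_019764), a target that encodes an inhibitor of YAP, gave 0.92 and 0.46 in Met-low and 0.94 and 0.52 in Met-high cells. The arrays overlapped almost completely, with a log2 ratio of 0.04 (SE 0.24, 95% interval -0.58 to 0.66, adjusted p = 0.929 from limma). *Ankrd1* (NM_013468) had intensities of 8.31 and 8.85 in Met-low and 5.93 and 6.41 in Met-high cells and was well above background on 0 of the 4 arrays. No ratio is given for it. *Lats2* is a target as well as a kinase. Of the 5 targets among the members, 4 were tested, all but *Ankrd1*, and 0 passed, against 5.71% of all genes.

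**Figure D3:**
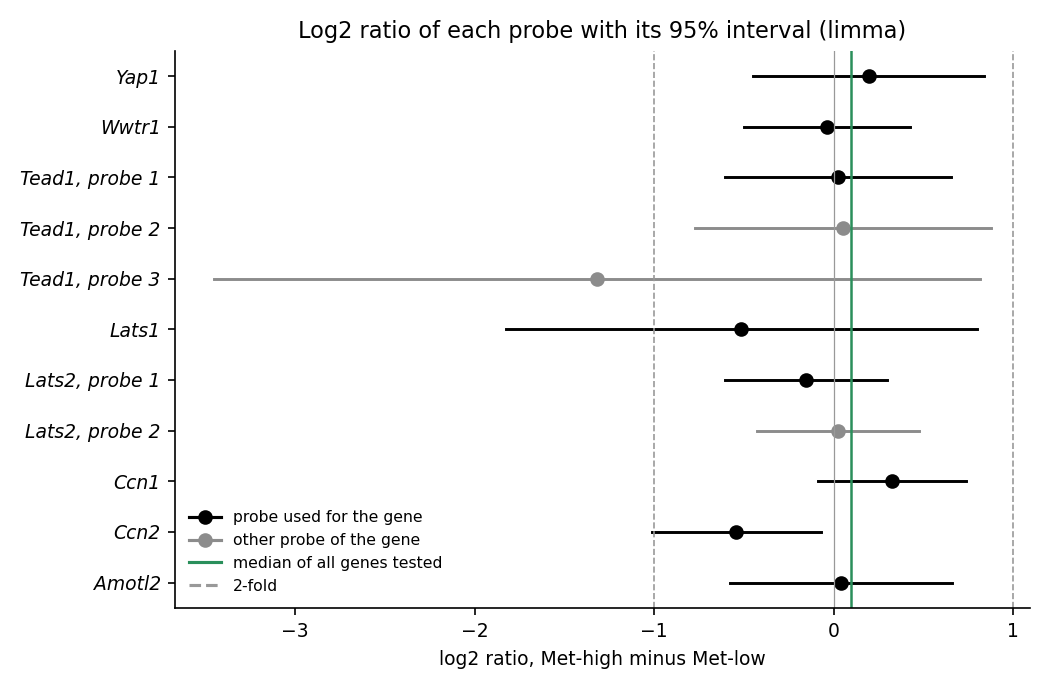
Log2 ratio of Met-high over Met-low cells for each member that passed the filter, with its 95% interval from limma, for the probe that stands for the gene (black) and for the other probes (grey). The green line is the median of all genes tested, 0.10, and dashed lines mark 2-fold. The intervals of *Ccn1* and of the other members reach across 0 except that of *Ccn2*, which runs from -1.01 to -0.07, and the third *Tead1* probe has the widest interval, from -3.45 to 0.81.

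The wider pathway was read from gene lists chosen with earlier results of these arrays known. In the kinase cassette, the Mst, Lats and Ndr kinases with their partners and the kinases above them, 11 of 11 genes were tested, 0 passed, against 5.71% of all genes, and 1 had an unadjusted p under 0.05, against 26.2% of all genes. The mean was higher in Met-high cells for 4 and lower for 7 (median -0.17, against 0.10 over all genes). The gene farthest from 0 was *Taok1*, a kinase upstream of the Mst kinases, with a log2 ratio of -0.76 (SE 0.26, adjusted p = 0.147 from limma). *Mob1b* and *Mob1a*, coactivators of the Lats kinases, had log2 ratios of -0.39 (SE 0.15, adjusted p = 0.192) and -0.31 (SE 0.72, adjusted p = 0.815). *Mob1a* varied as *Lats1* did, at -1.94 and -3.32 in Met-low and -2.04 and -3.85 in Met-high cells.

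Among upstream regulators and inhibitors, 14 of 17 genes were tested and 0 passed, with 8 means higher and 6 lower (median 0.08). At an unadjusted p under 0.05 there were 4, near the background of 26.2% of all genes, beside 5.71% that passed the adjusted p. *Frmd6*, *Fat4* and *Dchs1* did not pass the filter. *Wwc1*, which encodes the scaffold Kibra, had a log2 ratio of 0.56 (SE 0.22, adjusted p = 0.185), *Amot*, a binding partner of YAP, 0.46 (SE 0.16, adjusted p = 0.154), and *Scrib*, a polarity protein, 0.41 (SE 0.18, adjusted p = 0.225). *Strn3*, a subunit of the phosphatase complex that opposes the Mst kinases, had -0.53 (SE 0.16, adjusted p = 0.117 from limma), the smallest adjusted p of the 32 regulators tested.

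Among coactivators and DNA-binding partners, 7 of 10 genes were tested and 0 passed, 0 also at an unadjusted p under 0.05, with 4 means higher and 3 lower (median 0.02), and *Tead3*, *Vgll1* and *Vgll2* did not pass the filter. The arrays of the populations did not overlap for *Tead2* and *Tead4*, the other TEAD genes tested, with Met-high arrays above. These were 2 of the 7 genes of the list, against 58.4% of all genes without overlap in either direction and 35.8% with Met-high arrays above. *Tead2* gave 0.81 and 1.73 in Met-low and 1.83 and 2.48 in Met-high cells (log2 ratio 0.89, SE 0.38, adjusted p = 0.214 from limma). *Tead4* gave -1.09 and -1.38 in Met-low and -0.65 and -0.94 in Met-high cells (log2 ratio 0.44, SE 0.20, adjusted p = 0.232 from limma). *Vgll3*, a TEAD cofactor, had -0.39 (SE 0.59, adjusted p = 0.706). Over the 3 lists together, 0 of 32 genes passed, 5 had an unadjusted p under 0.05, and the interval of 26 lay within 2-fold. Of all genes 5.71% passed, 26.2% had an unadjusted p under 0.05 and 68.6% had an interval within 2-fold.

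**Figure D4:**
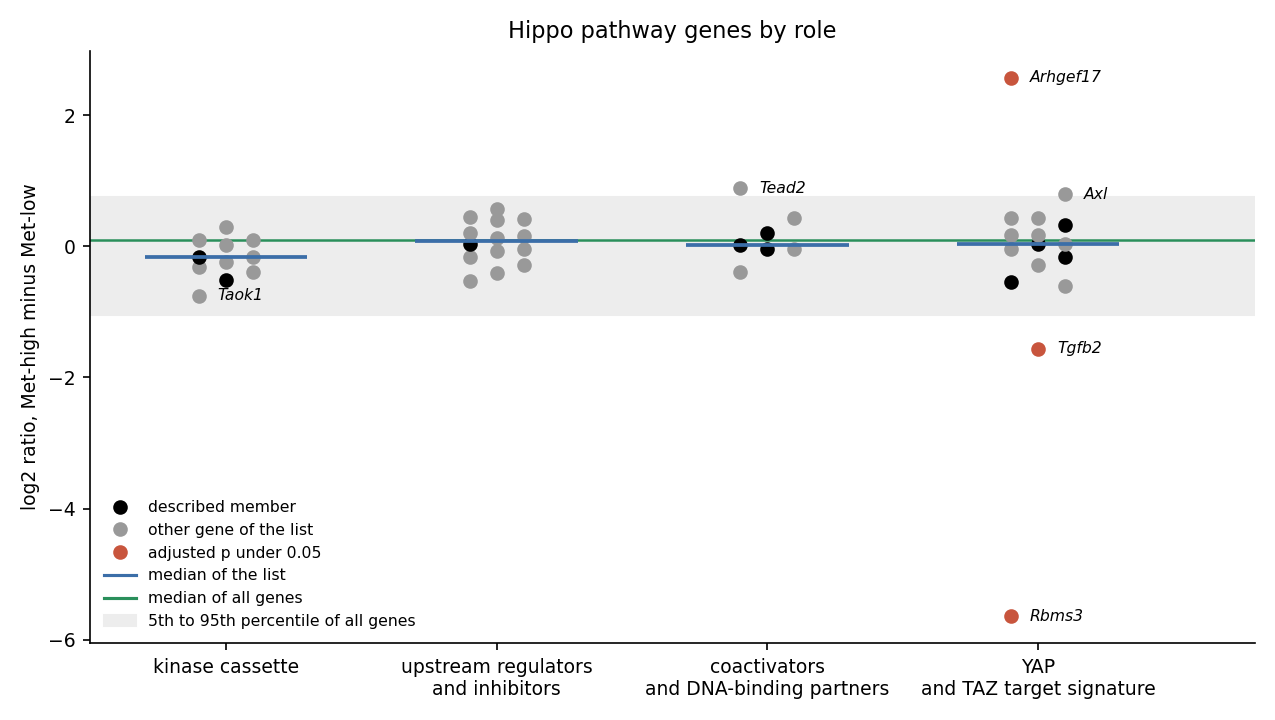
Log2 ratio of Met-high over Met-low cells for every tested gene of the 3 regulator lists and of the YAP and TAZ target signature, 1 point a gene, with the median of each list as a blue line and that of all genes as a green line. Black points are members, and the shaded band runs from the 5th to the 95th percentile of all genes, -1.04 to 0.76. Genes at an adjusted p under 0.05 are red, and there are 3, *Arhgef17*, *Tgfb2* and *Rbms3*, in the target signature and 0 in the other lists. *Arhgef17* and *Rbms3* passed the filter only through the population where they were brighter.

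The YAP and TAZ target signature, 22 genes that other cell types switch on through YAP, TAZ and TEAD, holds 5 of the members. Of its genes 16 were tested. With 9 means higher and 7 lower, its median was 0.04. At the adjusted p 1 gene was called higher and 2 lower, against 1.92% and 3.8% of all genes. An unadjusted p under 0.05 was seen for 7 of the 16, against 26.2% of all genes. The arrays did not overlap for 12, against 58.4%. Of the 3 called genes, *Arhgef17* and *Rbms3* passed the filter only through the population where they were brighter. A filter on all 4 arrays left 14 genes, with 0 called higher and 1 lower, beside 215 and 395 of 11229 genes. *Arhgef17* (NM_001081116) gave -4.83 and -4.88 in Met-low and -1.93 and -2.64 in Met-high cells. On the Met-low arrays it did not stand well above background, so only a bound can be given. By this bound it rose at least 5.48-fold in Met-high cells. Its adjusted p (0.0118 from limma) sets signal against background and adds no support. The bound sets the Met-high mean against a floor on each Met-low array, the lowest signal of any probe well above background or the dim probe itself where that is higher. *Tgfb2* (NM_009367), a secreted growth factor, gave -0.97 and -1.07 in Met-low and -2.61 and -2.55 in Met-high cells and fell by 1.56 on the log2 scale (SE 0.16, adjusted p = 0.0109 from limma). A second *Tgfb2* probe had a log2 ratio of -1.40. *Rbms3*, an RNA-binding protein gene, gave -0.46 and -0.81 in Met-low and -6.49 and -6.06 in Met-high cells. In Met-high cells the probe that stands for the gene was not well above background. The signal of this probe was at least 22.2-fold lower by the same bound. Its adjusted p (0.0019 from limma) likewise sets signal against background. Another *Rbms3* probe, well above background on 1 Met-high array, had a log2 ratio of -1.01 and did not pass. A further *Rbms3* probe was well above background on 0 arrays, also in Met-low cells. Both bounds hold for the deposited background correction only. With another one, normexp, the fitted log2 ratios were 1.25 for *Arhgef17* and -3.04 for *Rbms3*, smaller than these bounds. With the filter unchanged the adjusted p from limma was under 0.05 for both, which again sets signal against background and adds no support. *Axl*, a receptor tyrosine kinase, gave -1.14 and -1.31 in Met-low and -0.37 and -0.48 in Met-high cells and missed the threshold narrowly (log2 ratio 0.80, SE 0.16, adjusted p = 0.0575 from limma). The signature genes lay in both directions, and *Myof*, *Igfbp3*, *Foxf2*, *Ccdc80* and *Nt5e* did not pass the filter, like *Ankrd1*.

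Fibroblasts express many of these targets, and 1 of 6 fibroblast markers was well above background on all 4 arrays. This was *Col1a2*, which fell by 1.097 on the log2 scale in Met-high cells (SE 0.17, adjusted p = 0.0312 from limma), while *Dcn*, *Lum* and *Pdgfra* were well above background on 0 arrays, *Col1a1* on 1 Met-low array and *Col3a1* on 1 Met-high array. The summed level of the 6 markers, in multiples of the 75th percentile, was 0.628 and 0.685 in Met-low and 0.361 and 0.318 in Met-high cells. Most of this sum was *Col1a2*, at 0.509 and 0.604 in Met-low and 0.249 and 0.269 in Met-high cells. *Col1a2* lay in the direction of *Ccn2*, *Tgfb2* and *Rbms3* and against that of *Ccn1*, *Axl* and *Arhgef17*. Of the signature genes tested, 7 means were lower in Met-high cells, as for *Col1a2*, and 9 higher. The part of *Col1a2* in these results was not tested. Both populations were sorted from 1 cell line. In bulk RNA fewer cells that express a gene and less RNA per cell cannot be told apart. The summed level of 3 keratinocyte markers was 3.71 and 2.49 against 3.97 and 2.59, that of 3 endothelial markers 6.30 and 5.47 against 8.43 and 6.72, and that of 2 leukocyte markers 1.94 and 2.92 against 1.37 and 1.71. Nearly all of these sums came from *Trp63*, *Kdr* and *Itgam*. *Trp63* was at 3.64 and 2.39 against 3.87 and 2.49, *Kdr* at 6.26 and 5.40 against 8.38 and 6.64. *Itgam* was at 1.93 and 2.91 against 1.36 and 1.68. These genes were well above background on all 4 arrays, *Krt14* and *Pecam1* on 3, *Krt5* on 2, and *Cdh5* and *Ptprc* on 0. Another probe of *Trp63* and another of *Kdr* were well above background on 0 arrays.

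**Figure D5:**
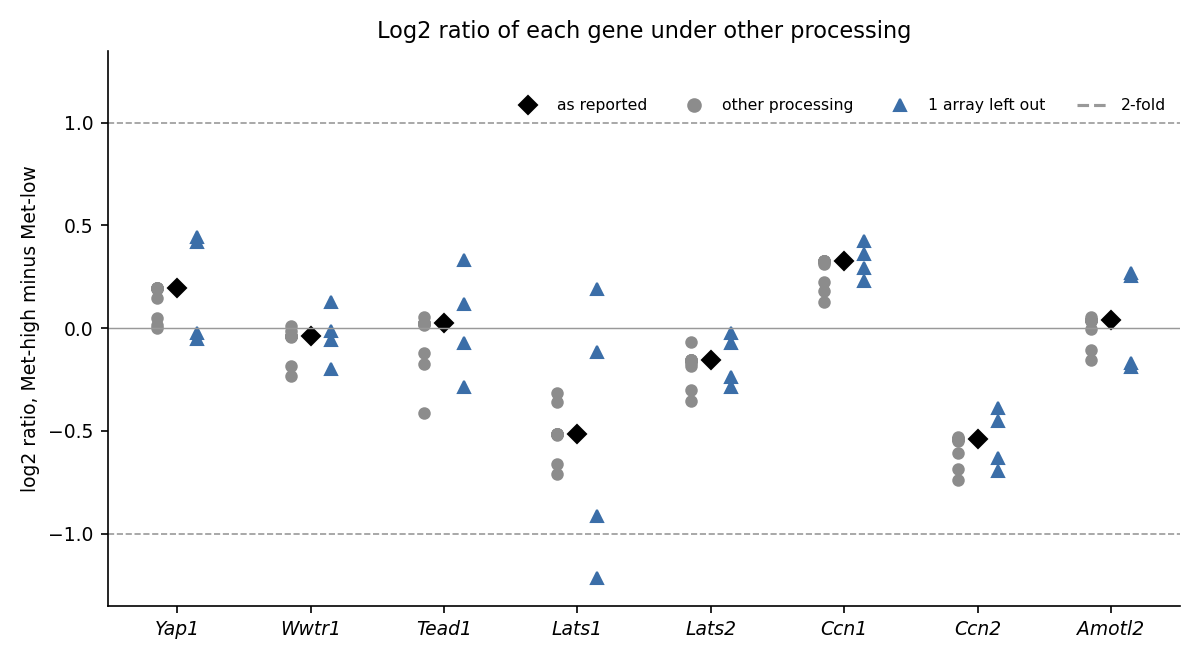
Log2 ratio of each member as reported and under other processing, and with 1 array left out in turn, with dashed lines at 2-fold. *Ccn1* stays between 0.13 and 0.42 and *Ccn2* between -0.74 and -0.39, while *Yap1*, *Wwtr1*, *Tead1*, *Lats1* and *Amotl2* lie on both sides of 0.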

How the data were processed

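Total RNA of 2 Met-low and 2 Met-high samples was labelled with Cy3 and hybridised to Agilent one-colour mouse arrays. The authors deposited the Feature Extraction output, in which each spot has a background-corrected intensity on a linear scale with flags, and a table of processed log2 values, which was used as an alternative here. The file headers name version 11.0.1.1 and the processing notes of the submitters version 10.7.3.1. Intensities were floored at 0.01, taken to log2, set relative to the 75th percentile of the array, and averaged over the spots of a probe, leaving out 207 to 232 flagged spots per array. Probe accessions were named through the RefSeq gene table of GRCm38.p6 (27427 of 39429 probes). The brightest probe stood for a gene. Populations were compared with lmFit and eBayes (limma 3.58.1, R 4.3.3), taking 2 arrays of each, with p-values adjusted by Benjamini and Hochberg over 11958 genes, two-sided, at 0.05. The number of arrays limits the precision.

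The members, lists (kinase cassette, upstream regulators and inhibitors, coactivators and DNA-binding partners, YAP and TAZ target signature, and markers of melanocytes, fibroblasts, keratinocytes, endothelial cells and leukocytes) and tests were chosen with earlier results of these data known. Genes named are the members, the TEAD genes, *Met*, and from each list those past the adjusted p and the 4 with the largest absolute log2 ratio. *Col1a2*, *Cdh5* and the other markers were named from their list. Tested on simulated data of 11958 genes for the same comparison, the fit called 25 of 34 genes lowered by 2 on the log2 scale, 26 of 33 raised by 2, 1 of 33 lowered by 1 and 4 of 33 raised by 1. It also called 6 of 11758 unchanged genes. The simulated noise was independent between arrays, with a spread taken from the fit. In the data, replicate 1 minus replicate 2 correlated between the populations (r = 0.54), which the simulation left out. Alternatives were normexp background correction (offset 50, on median intensities), quantile normalization, a 75th percentile over detected probes, no filter, a filter on all 4 arrays, flagged spots kept, the mean of probes or every probe by itself, the authors' processed log2 values, each array left out, a replicate block, a mean-variance trend, a 2-fold rule, the methods' t-test, and no scaling between arrays. Protein sequences and the promoter windows of *Tead1* and *Ccn2* were not used here. Promoters and figures were handled with Python 3.11.15, numpy 2.4.6, pandas 2.3.3 and matplotlib 3.10.9.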

Additional observations from a re-analysis of the deposited data

How the results depend on the processing

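No member gene passed the adjusted p under any alternative other than the replicate block, and 0 were called higher in all of them. The replicate numbers are shared between populations but nothing says that they pair the samples. Replicate 1 minus replicate 2 correlated between the populations with r = 0.54 over 11942 genes, and with only 2 pairs this does not show pairing. Replicate 1 was above replicate 2 in both populations for 7 of 8 members and for 33.9% of all genes. With the replicate block 1 member was called lower (*Ccn2*, adjusted p = 0.0296), 4 regulators higher and 3 lower (0 and 0 as reported), 2 signature genes higher and 4 lower (1 and 2 as reported), and 1969 of all genes higher and 1582 lower (229 and 454 as reported). Of the regulators these were *Taok1* (adjusted p = 0.0167), *Wwc1* (0.0311), *Strn3* (0.0315), *Amot* (0.0403), *Tead2* (0.0154) and *Tead4* (0.0411) among the genes named. With the block, 1 member probe was called lower. The methods' t-test at an unadjusted p under 0.05 gave 1 regulator higher and 4 lower, 2 signature genes higher, and 1265 of all genes higher and 944 lower, and after Benjamini-Hochberg 0 signature genes higher, 0 lower, and 1 of all genes higher and 0 lower. Signature genes called higher were 2 with normexp, 0 without the filter, 0 with a filter on all 4 arrays and 2 with the mean-variance trend, and those called lower were 1 without the filter and 1 with a filter on all 4 arrays. All genes called higher were 139 with the 75th percentile over detected probes, 0 without the filter, 392 with the mean-variance trend, 151 with every probe by itself and 79 without scaling between arrays, an alternative chosen after seeing the data, and 7 were called lower without the filter. Without 1 array, all genes called higher ranged from 158 to 261, those called lower from 441 to 605, and member probes called lower from 0 to 1 (the third *Tead1* probe, without Met-high replicate 1, where the Met-high array left was not well above background and its spread was taken from the Met-low arrays). A rule of 2-fold without a test gave 1 member probe lower. *Arhgef17* did not pass without the filter (adjusted p = 0.0873) and by the methods' t-test after Benjamini-Hochberg (0.219), *Tgfb2* likewise (0.0888 and 0.196), and *Rbms3* by the latter (0.196). *Axl* passed with normexp (adjusted p = 0.0493), the block (0.0140) and the trend (0.0444). These ratios changed sign. *Yap1* ranged without 1 array from -0.051 to 0.44 and was -0.00073 without scaling. *Wwtr1* ranged from -0.20 to 0.13 and was 0.0099 with quantile normalization. *Tead1* ranged from -0.28 to 0.33, and was -0.12 with the 75th percentile over detected probes, -0.41 with the mean of probes and -0.17 without scaling. *Amotl2* ranged from -0.19 to 0.27, and was -0.0017 with quantile normalization, -0.10 with detected probes and -0.16 without scaling. *Lats1* ranged from -1.22 to 0.19, *Mob1a* from -1.22 to 0.60 and *Vgll3* from -1.19 to 0.40. The second *Tead1* probe ranged from -0.36 to 0.47, and was -0.093 with detected probes and -0.14 without scaling. The second *Lats2* probe ranged from -0.10 to 0.15, and was -0.12 and -0.17 likewise. The scaling to detected probes moved the median over all genes from 0.10 to -0.05, and leaving out scaling moved it to -0.10. The cause of these changes was not tested. Of 419 alternative values for 25 genes and probes, 371 kept their direction and their side of the threshold. Another filter, the block, the trend and the t-test left the ratios of the members unchanged, so this count does not measure robustness.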

Other observations

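The spread within the populations was wide for a few other genes of the pathway. The pooled SD on the log2 scale was 1.14 for *Mob1a*, exceeded by 0.569% of all genes, 0.92 for *Vgll3*, exceeded by 1.16%, and 0.56 for *Tead2*, exceeded by 5.02%, while the median over all genes was 0.18. It was 0.10 for *Ccn1* and 0.18 for *Ccn2*. The second probe of *Tead2* gave -0.24 and 0.10 in Met-low and 0.58 and 1.18 in Met-high cells (log2 ratio 0.95) (adjusted p = 0.13 from limma), beside 0.89 for the first.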
